A study of Arabidopsis thaliana with 8 samples.

Results

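Glutathione transferases of the tau (GSTU) and phi (GSTF) classes were followed in Arabidopsis thaliana seedlings given abscisic acid (ABA), its catabolites phaseic acid (PA) and dihydrophaseic acid (DPA), or a mock treatment. The members are 27 tau loci, GSTU1 to GSTU28 without GSTU20, and 10 phi loci, GSTF2 to GSTF8 and GSTF12 to GSTF14. They were looked up by locus identifier, without use of any measured value, and all 37 were found among the 32678 genes of the deposited tables. Whole Columbia seedlings, 10 days old and raised on MS medium in continuous light, received ABA, PA or DPA at 50 μM for 3 h or the mock treatment, whose solvent the labels do not name. Polyadenylated RNA of 2 biological replicates per group was sequenced, giving 8 libraries. Every group was wild type, and ABA, PA and DPA were compared at a single dose and a single time. The comparison with mock asks which transcripts each compound changed, and the comparison among compounds asks how far the responses to PA and DPA resemble the response to ABA.

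Glutathione transferases join the tripeptide glutathione to reactive or foreign molecules, which marks the product for transport into the vacuole and further breakdown. Tau and phi are the classes that expanded in plants, they lie partly in tandem arrays, and they are known for the detoxification of herbicides and explosives, for binding flavonoids and auxin, and for induction by stress, salicylate and oxidised lipids. PA forms from ABA after hydroxylation by CYP707A enzymes, and DPA forms from PA by reduction of its ketone to a hydroxyl group.

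Libraries held between 11.5 and 15.9 reads in genes, in units of 1e6, and between 22416 and 22762 genes had at least 1 read. The deposited tables give group means, from which the normalized count of each library was recovered. Since the replicate numbers of the recovered libraries are unknown, values are given for the deeper library, that of higher size factor, and then for the shallower library of each group. The 2 ABA libraries had size factors of 1.15 and 0.816, the PA libraries 1.17 and 0.855, the DPA libraries 1.0 and 0.968, and the mock libraries 0.979 and 0.917. All 11 root-enriched and all 7 green-tissue marker genes had reads in mock. Tissue was not dissected, so fewer cells of a type and less RNA per cell cannot be told apart in any value below. A gene is called below when the authors' deposited adjusted p (DESeq) is under 0.05 in a comparison with mock, or when the limma adjusted p is under 0.05 in a comparison of compounds.

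The stretches upstream of the tau and phi genes are shown first, because members that moved with ABA differ in which known response elements these stretches hold. RefSeq's TAIR10.1 annotation matched all 37 members by locus, and the 250 bases before each annotated start were searched on both strands for 3 short words. The ABA response element core, bound by ABF-type bZIP factors, was searched as ACGTG. The core bound by TGA factors was searched as TGACG and the W-box core bound by WRKY factors as TTGAC. Matches of the ABA element and of the TGA core can overlap each other. Below, each stretch is given 5′ to 3′ on the strand of its gene, with the ABA element, the TGA core and their reverse complements in capitals. They are GSTU9 (chr5:25089627-25089876, minus strand) and GSTF8 (chr2:19556076-19556325, plus strand), which hold both elements, GSTU25 (chr1:5871774-5872023, plus strand), which holds the TGA core alone, and GSTU4 (chr2:12627892-12628141, minus strand), which holds neither.
GSTU9: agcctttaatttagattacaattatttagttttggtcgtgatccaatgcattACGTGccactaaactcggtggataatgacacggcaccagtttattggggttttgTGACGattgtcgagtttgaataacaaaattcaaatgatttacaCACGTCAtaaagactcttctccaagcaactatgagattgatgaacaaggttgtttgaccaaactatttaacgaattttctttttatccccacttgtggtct
GSTF8: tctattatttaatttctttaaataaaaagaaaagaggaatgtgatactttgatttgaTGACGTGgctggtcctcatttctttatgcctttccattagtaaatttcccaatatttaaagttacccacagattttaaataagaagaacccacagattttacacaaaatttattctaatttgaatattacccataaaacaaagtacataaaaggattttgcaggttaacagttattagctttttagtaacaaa
GSTU25: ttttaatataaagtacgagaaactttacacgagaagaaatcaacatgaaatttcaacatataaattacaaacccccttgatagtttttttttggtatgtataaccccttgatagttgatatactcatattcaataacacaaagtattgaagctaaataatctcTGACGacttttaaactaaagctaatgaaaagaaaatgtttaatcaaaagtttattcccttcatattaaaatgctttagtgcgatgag
GSTU4: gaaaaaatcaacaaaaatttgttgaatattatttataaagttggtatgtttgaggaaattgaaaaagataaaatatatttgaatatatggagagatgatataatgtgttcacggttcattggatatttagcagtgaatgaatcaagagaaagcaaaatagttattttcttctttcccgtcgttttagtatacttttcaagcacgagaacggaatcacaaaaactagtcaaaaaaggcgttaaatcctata
In GSTU9 the leftmost bases of the ABA element matches lay at -198 and -101 and those of the TGA core at -144 and -99, counted back from the annotated start. In GSTF8 a TGA core at -193 ran into an ABA element at -191, and in GSTU25 the TGA core lay at -87. The annotated GSTF8 gene holds 2395 exon bases for 792 coding bases and shares 219 with AT2G47720 on the same strand. Whether its annotated start is that of the main GSTF8 transcript was not tested. GSTU4, whose rise with ABA was close to that of GSTU9, has neither element in its 250 bases. The ABA element was found upstream of 10 of 27 tau genes (37%) and 3 of 10 phi genes, against 22.9% of 27443 protein-coding genes. The TGA core was found upstream of 11 tau genes (40.7%) and 2 phi genes, against 18.6% of all, and the W-box core upstream of 16 tau genes (59.3%) and 6 phi genes, against 44.9%. Of the 11 tau genes called higher with ABA, 7 held the TGA core (GSTU1, GSTU3, GSTU5, GSTU9, GSTU22, GSTU24 and GSTU25), against 4 of the other 16, and 9 held the W-box core, against 7 of the other 16. The ABA element was held by 3 of the 11, against 7 of the other 16. These are counts of letters in a fixed window, not of bound sites. The windows were not trimmed at neighbouring genes. Among the 7 genes with the ABA element that were not called higher, the GSTU18 window lay within the GSTU17 gene. The GSTU2 window, also among these 7, ran into the GSTU1 gene.

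ABA raised 11 tau transcripts and lowered none, with changes between 0.35 (GSTU19) and 5.63 (GSTU4) on the log2 scale. The risers included the most abundant tau member, GSTU19, as well as genes that were nearly silent in mock, such as GSTU3 and GSTU4. Of the 27 tau loci 26 were tested in the authors' deposited table, since GSTU15 had no read in any library. By the deposited adjusted p (DESeq), 10.3% of all tested genes were called higher with ABA, 5.12% lower and 15.4% in either direction. The median log2 fold change was 0.78 over the 24 tau genes with a finite value, or 0.92 with genes at 0 set at their bound, against -0.01 over all genes. The changes of 8 of the risers were at least 2-fold. At an unadjusted deposited p under 0.05 a total of 14 tau genes passed, where 23.6% of all genes did.

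GSTU9 (AT5G62480) had 792 and 750 normalized counts with ABA, 113 and 119 with PA, 51.9 and 31.0 with DPA, and 22.5 and 16.4 in mock. The groups did not overlap and followed the order ABA, PA, DPA, mock. In the authors' deposited table its ABA level was 39.7-fold the mock level (log2 fold change 5.31, adjusted p = 1.06e-97, DESeq), and the limma log2 difference was 5.26 with a 95% interval of 4.71 to 5.80. GSTU4 (AT2G29460) had 229 and 243 normalized counts with ABA, 21.4 and 29.2 with PA, 9.99 and 4.13 with DPA, and 4.09 and 5.45 in mock. Only 9 reads stood behind its mock level, so that the ratio of ABA to mock reads was 49.4 with a 95% counting interval of 25.8 to 109. The ABA and PA libraries lay apart from each other and above the rest, while DPA and mock overlapped. GSTU3 (AT2G29470), the next gene along the same array, had 40.0 and 38.0 normalized counts with ABA, 2.57 and 2.34 with PA, and 0 in all DPA and mock libraries. Against the limit that 3 reads over the mock group would set, its ABA level was at least 24.6-fold higher (adjusted p = 3.73e-09 in the authors' deposited table, DESeq). GSTU3 reached the mean of 10 that limma required only through its ABA libraries.

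GSTU25 and GSTU24 are neighbours on chromosome 1 and encode enzymes that conjugate the explosive TNT. GSTU25 (AT1G17180) had 455 and 376 normalized counts with ABA, 41.1 and 33.9 with PA, 65.9 and 26.8 with DPA, and 40.9 and 20.7 in mock. The ABA libraries stood alone, and the other 3 groups overlapped (log2 fold change of ABA over mock 3.75, adjusted p = 7.32e-31 in the authors' deposited table, DESeq). GSTU24 (AT1G17170) had 212 and 224 with ABA, 56.5 and 35.1 with PA, 86.9 and 39.2 with DPA, and 26.6 and 17.4 in mock. Here PA and DPA also lay above mock without overlap, although in the authors' deposited table only the ABA change was called (log2 fold change 3.31, adjusted p = 2.62e-23, DESeq).

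GSTU17 (AT1G10370), a gene whose loss raises glutathione and drought tolerance, had 840 and 1003 normalized counts with ABA, 301 and 299 with PA, 183 and 195 with DPA, and 159 and 253 in mock (log2 fold change of ABA over mock 2.16 in the authors' deposited table). GSTU1 (AT2G29490) had 211 and 241 with ABA, 85.6 and 65.5 with PA, 68.9 and 50.6 with DPA, and 70.5 and 42.5 in mock (2.00 in the authors' deposited table). GSTU22 (AT1G78340) had 47.8 and 64.9 with ABA, 21.4 and 12.9 with PA, 16.0 and 8.26 with DPA, and 10.2 and 6.54 in mock (2.75 in the authors' deposited table). In these genes the ABA libraries were above all others. The PA libraries of GSTU17 and GSTU22, but not those of GSTU1, were also above both mock libraries. The adjusted p of ABA against mock in the authors' deposited table (DESeq) was 1.52e-15 for GSTU17, 7.53e-12 for GSTU1 and 1.49e-05 for GSTU22.

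The remaining risers moved less. GSTU5 (AT2G29450) had 2536 and 2213 normalized counts with ABA, 1506 and 1598 with PA, 1050 and 1185 with DPA, and 1076 and 1356 in mock (log2 fold change of ABA over mock 0.97 in the authors' deposited table). GSTU16 (AT1G59700) had 338 and 325 with ABA against 195 and 232 in mock (0.63), and GSTU19 (AT1G78380) had 5330 and 5378 with ABA against 3939 and 4479 in mock (0.35, both in the authors' deposited table). For all of these genes the ABA libraries lay above those of every other group. The GSTU19 call was the weakest of the tau class, at an adjusted p of 0.0401 in the authors' deposited table (DESeq). With the shallower ABA library left out, its limma adjusted p was 0.0529, in a range of 0.00257 to 0.0529 over all alternatives. GSTU3 fell below the limma filter when either ABA library was left out.

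**Figure D1:**
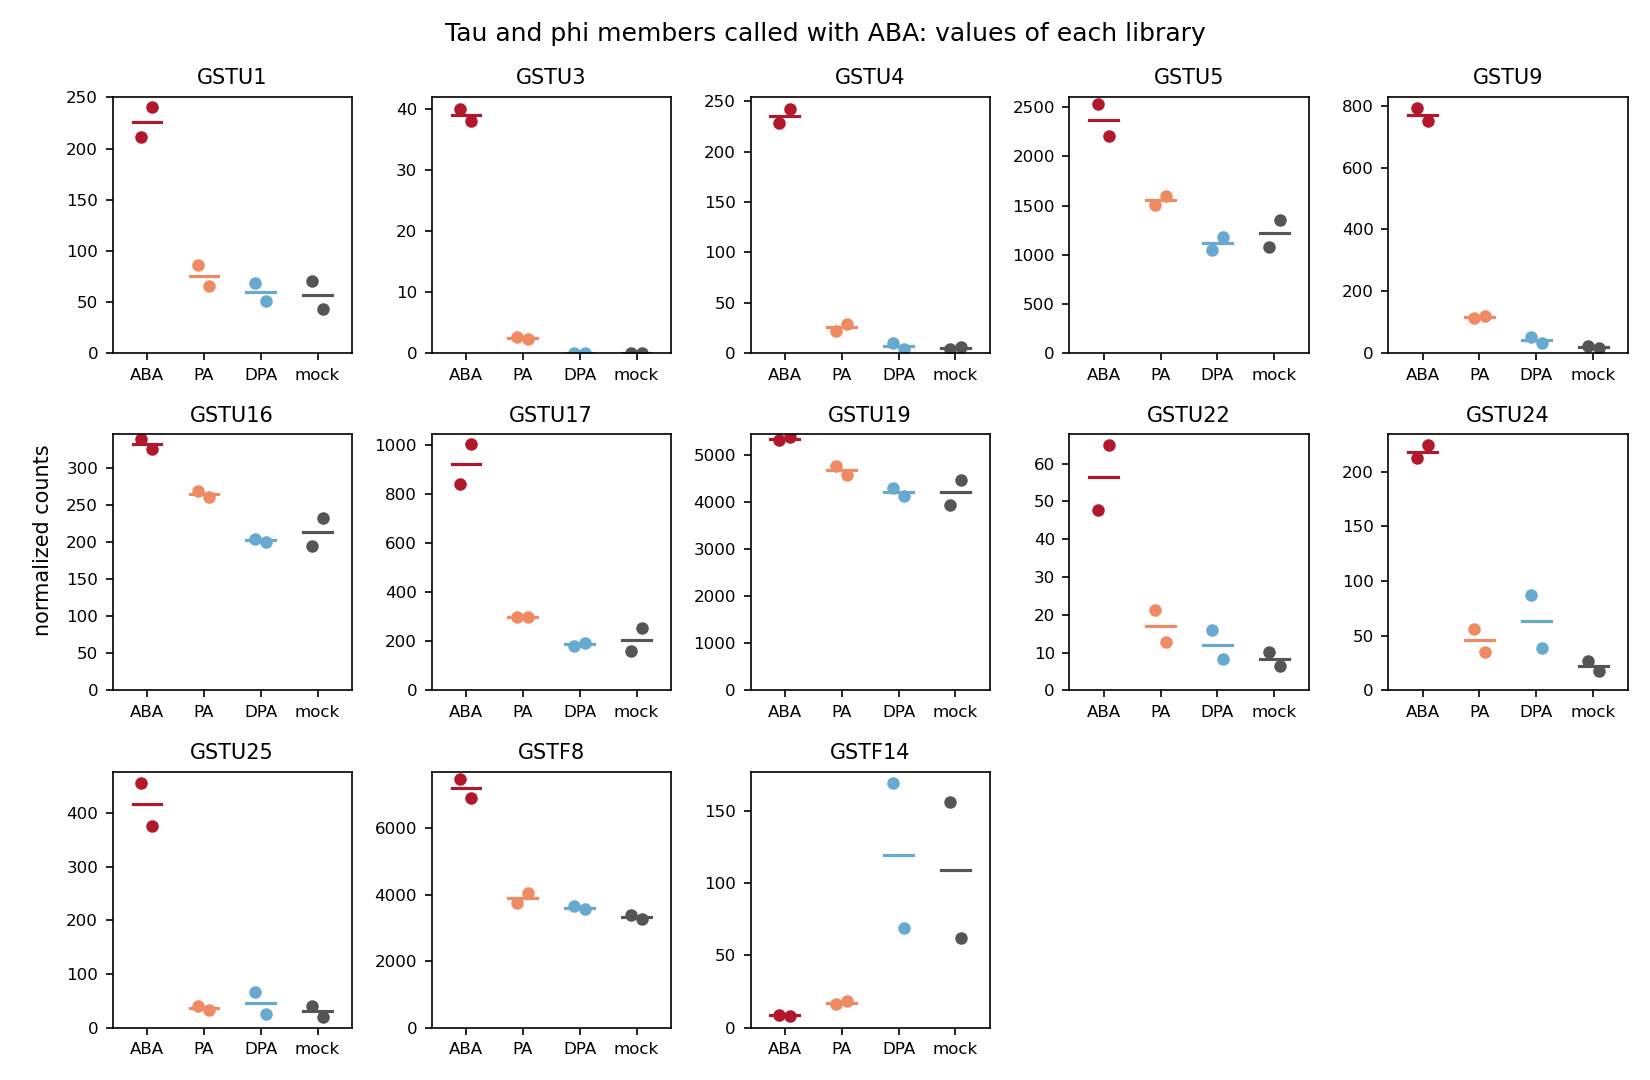
Normalized counts of each library (points) and group means (bars) for the 13 tau and phi members called with ABA, with the groups ABA, PA, DPA and mock from left to right. In 12 panels the ABA points stand above all others, and in GSTF14 they stand lowest.

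The 16 tau genes that were not called with ABA had changes between -1.01 (GSTU14) and 2.48 (GSTU12) among those with a finite value in the authors' deposited table. GSTU12 and GSTU21 had at most 7 reads over the ABA group. GSTU13 (AT1G27130), which acts in the breakdown of indole glucosinolates in defence, had 1257 and 1248 normalized counts with ABA against 1650 and 1337 in mock, and GSTU27 had 777 and 676 against 794 and 868. With upper-quartile scaling, which shifted log2 differences of ABA from mock by a median of -0.09, limma called 11 tau genes higher and 2 lower, these being GSTU13 and GSTU27. With the size factors of the tables limma called 13 higher, adding GSTU6 and GSTU7, and none lower, where it called 32.3% of 19617 genes, 18.0% higher and 14.3% lower. With the shallower mock library left out, limma called 11 tau genes higher and 2 lower, GSTU13 and GSTU14. In 15 of the 23 tau genes with a mean of at least 10 both ABA libraries lay above both mock libraries, and in 2 both lay below, against 32.6% and 31.6% of all such genes.

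Calls differed between neighbouring tau genes. The array of 7 genes from GSTU7 to GSTU1 on chromosome 2 (12617936 to 12632538, TAIR10.1) spans 14.6 kb, and its members GSTU1, GSTU3, GSTU4 and GSTU5 rose with ABA. GSTU2 lies between risers and shares 85.9% of its coding bases with GSTU1. It had 19.1 and 15.9 normalized counts with ABA against 5.11 and 3.27 in mock, without overlap, and its log2 fold change of 2.06 was close to that of GSTU1 (2.00). It was not called (adjusted p = 0.122, both in the authors' deposited table, DESeq), but limma on the ABA and mock libraries alone called it higher, so the missing call does not show that it stayed level. GSTU2 also shares 669 exon bases with AT2G29485 on the opposite strand, not analysed here. In the array of the members GSTU23, GSTU22, GSTU21 and GSTU19 on chromosome 1 the outer gene GSTU19 and GSTU22 rose. GSTU20 (AT1G78370), outside the member list, has a locus number between those of GSTU21 and GSTU19. It had 1769 and 2251 normalized counts with ABA against 2844 and 4145 in mock. The authors' deposited table did not call GSTU20 (adjusted p = 0.136, DESeq), while limma called it lower. In GSTU24, GSTU25 and GSTU26 the last was not called (108 and 105 with ABA against 99.1 and 68.7 in mock). GSTU17 rose while its neighbour GSTU18, with 81.6% of coding bases in common and 71 exon bases shared on the same strand, had 491 and 620 normalized counts with ABA against 444 and 518 in mock. No gene of the pairs GSTU13 with GSTU14 and GSTU12 with GSTU11 was called, nor any of the phi array GSTF7, GSTF6, GSTF5 and GSTF4.

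Among the 10 phi genes the authors' deposited table called GSTF8 higher and GSTF14 lower with ABA. It called 10.3% of all tested genes higher and 5.12% lower, so the phi counts lie near the share over all genes. GSTF8 (AT2G47730), the classic gene of stress induction through a TGA-bound promoter element, had 7483 and 6913 normalized counts with ABA, 3733 and 4045 with PA, 3645 and 3568 with DPA, and 3398 and 3277 in mock. The ABA libraries stood apart from all others, and both the PA and the DPA libraries lay slightly above mock (log2 fold change of ABA over mock 1.11, adjusted p = 1.06e-16 in the authors' deposited table, DESeq). GSTF14 (AT1G49860) had 8.70 and 8.57 with ABA, 16.3 and 18.7 with PA, 169 and 69.2 with DPA, and 156 and 62.1 in mock. The ABA and PA libraries lay below both the DPA and the mock libraries, and the deeper library held more than 2-fold the value of the shallower one within DPA and within mock. In the authors' deposited table the log2 fold change of ABA over mock was -3.66 with an adjusted p of 0.0487 (DESeq), close to the threshold.

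GSTF2 (AT4G02520), which binds auxin and camalexin and is induced by ethylene and salicylate, had 656 and 919 normalized counts with ABA, 1345 and 1876 with PA, 3618 and 2810 with DPA, and 2740 and 1603 in mock. The ABA libraries lay below every other library. The authors' deposited table did not call it (log2 fold change -1.46, adjusted p = 0.065, DESeq), while limma did (adjusted p = 0.00256). GSTF12 (AT5G17220), the TT19 protein that carries anthocyanins to the vacuole, had 35.7 and 58.8 with ABA, 23.1 and 24.6 with PA, 16.0 and 12.4 with DPA, and 12.3 and 24.0 in mock. It was likewise called by limma (log2 difference 1.36, adjusted p = 0.0238) and not in the authors' deposited table (adjusted p = 0.139, DESeq). With ABA limma thus called GSTF8 and GSTF12 higher and GSTF2 and GSTF14 lower, where it called 18.0% of 19617 genes higher and 14.3% lower. The median log2 fold change over the phi class was 0.33 in the authors' deposited table. In the same table GSTF6, which conjugates a camalexin precursor in defence, had an adjusted p of 0.232, and the remaining phi genes GSTF3, GSTF4, GSTF5, GSTF7 and GSTF13 had adjusted p of at least 0.458 (DESeq).

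Exons of GSTF2, GSTF4, GSTF12, GSTU2, GSTU6, GSTU7 and GSTU10 overlap genes on the opposite strand. Reads there cannot be kept apart unless the library marks strand, which the protocol does not state. GSTF2 shares 890 exon bases with AT4G02510, which averaged 6061 normalized counts with ABA and 7108 in mock and was not called. GSTF12 shares 108 exon bases with AT5G17230, at 3629 with ABA and 3583 in mock. GSTU7 shares 52 exon bases with AT2G29410, whose mean was 12 with ABA and 17.4 in mock, and 559 with AT2G08340, not analysed here. GSTF4 shares 288 with AT1G02952, at 22.8 with ABA and 23.3 in mock. GSTU6 shares 398 with AT2G29430, at 1.3 and 1.09, and GSTU10 shares 89 with AT1G74580, at 115 and 132. The share of these overlaps in the values was not tested.

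**Figure D2:**
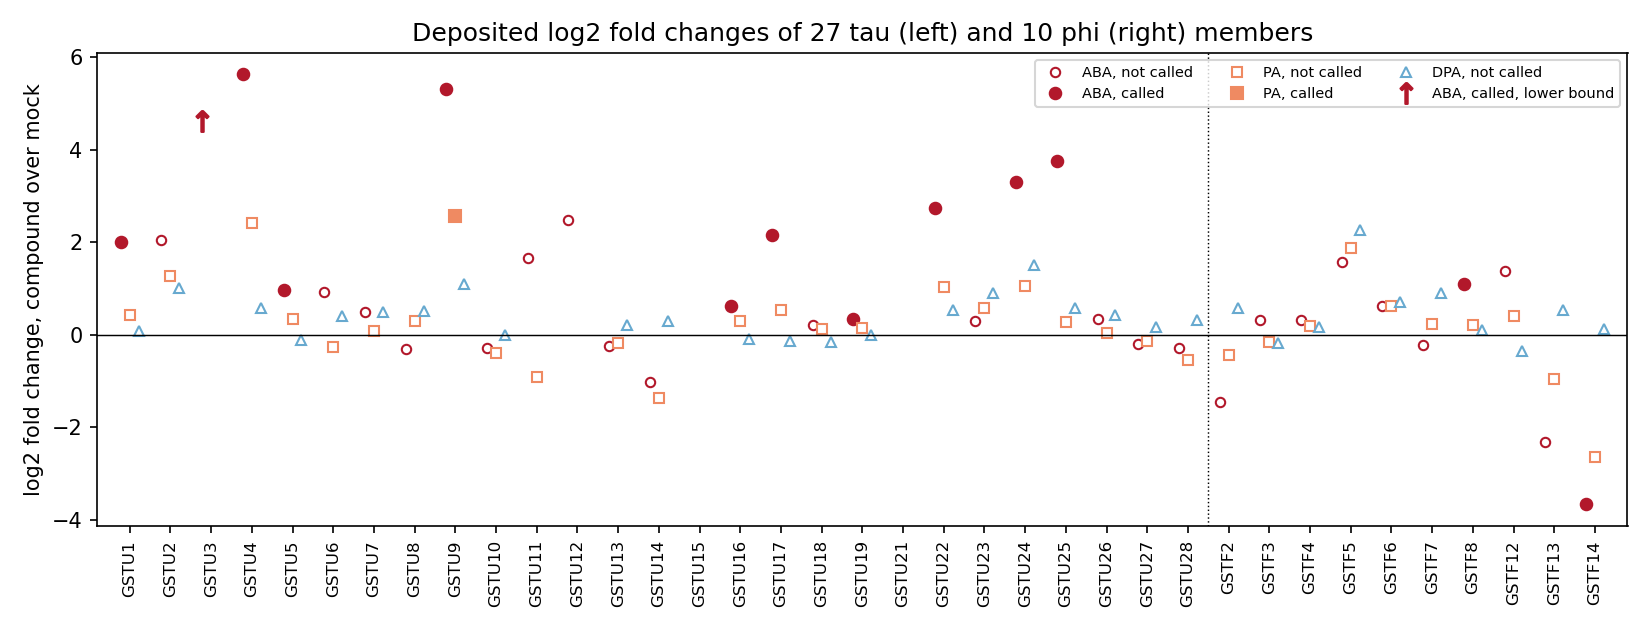
Deposited log2 fold change over mock for each member with ABA (circles), PA (squares) and DPA (triangles), tau genes left and phi genes right of the dotted line, with filled symbols for an adjusted p under 0.05. The arrow marks the lower bound of GSTU3 with ABA, other values against a group at 0 are not drawn, and the filled PA symbol is GSTU9.

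Levels per kilobase of exon, in normalized counts, were compared among the members of each class. The sums and shares leave out GSTU20, GSTF9, GSTF10 and GSTF11, which are outside the member list. Among the tau members GSTU19 came first in every group, at 4781 with ABA, 4178 with PA, 3765 with DPA and 3758 in mock. It made 38.1% of the tau sum with ABA, against 45.3% in mock, where GSTU13 followed at 1161, GSTU5 at 957 and GSTU27 at 794. With ABA the order below GSTU19 was GSTU5 at 1870, GSTU13 at 974, GSTU17 at 795 and GSTU9 at 747. GSTU9 stood at 18.8 in mock. The tau sum per kilobase was 12626 and 12487 in the ABA libraries, 9128 and 9086 in the PA libraries, 9000 and 8496 in the DPA libraries, and 8086 and 8513 in the mock libraries. The ABA and PA libraries thus lay above mock without overlap, while the DPA and mock libraries overlapped.

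On this scale the leading phi member differed between groups. GSTF8 stood at 3005 per kilobase with ABA and 1394 in mock, and GSTF2 at 535 with ABA and 1476 in mock. GSTF8 therefore made 77.7% of the phi sum with ABA, against 43.3% in mock, and GSTF2 made 13.8% with ABA, against 45.8% in mock. In mock the GSTF2 libraries lay on either side of the GSTF8 libraries on this scale, so their order there is within the spread. With DPA GSTF2 led the phi members at 2185 per kilobase, and with PA it stood at 1095. The order and shares depend on the exon lengths, 2395 bases for GSTF8 (792 coding) and 1471 for GSTF2 (639 coding). The GSTF8 length includes 219 bases shared with AT2G47720 on the same strand. The GSTF2 length includes 890 bases shared with AT4G02510 on the opposite strand. In normalized counts not divided by length, GSTF8 lay above GSTF2 in mock (3338 against 2171) and with DPA (3606 against 3214). GSTF9, outside these sums, averaged 6806 counts with ABA, 8667 with PA, 5906 with DPA and 7110 in mock. GSTF8 averaged 7198 with ABA and 3889 with PA. The phi sum was 3956 and 3781 in the ABA libraries, 2905 and 3216 in the PA libraries, 4656 and 3734 in the DPA libraries, and 3656 and 2781 in the mock libraries.

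**Figure D3:**
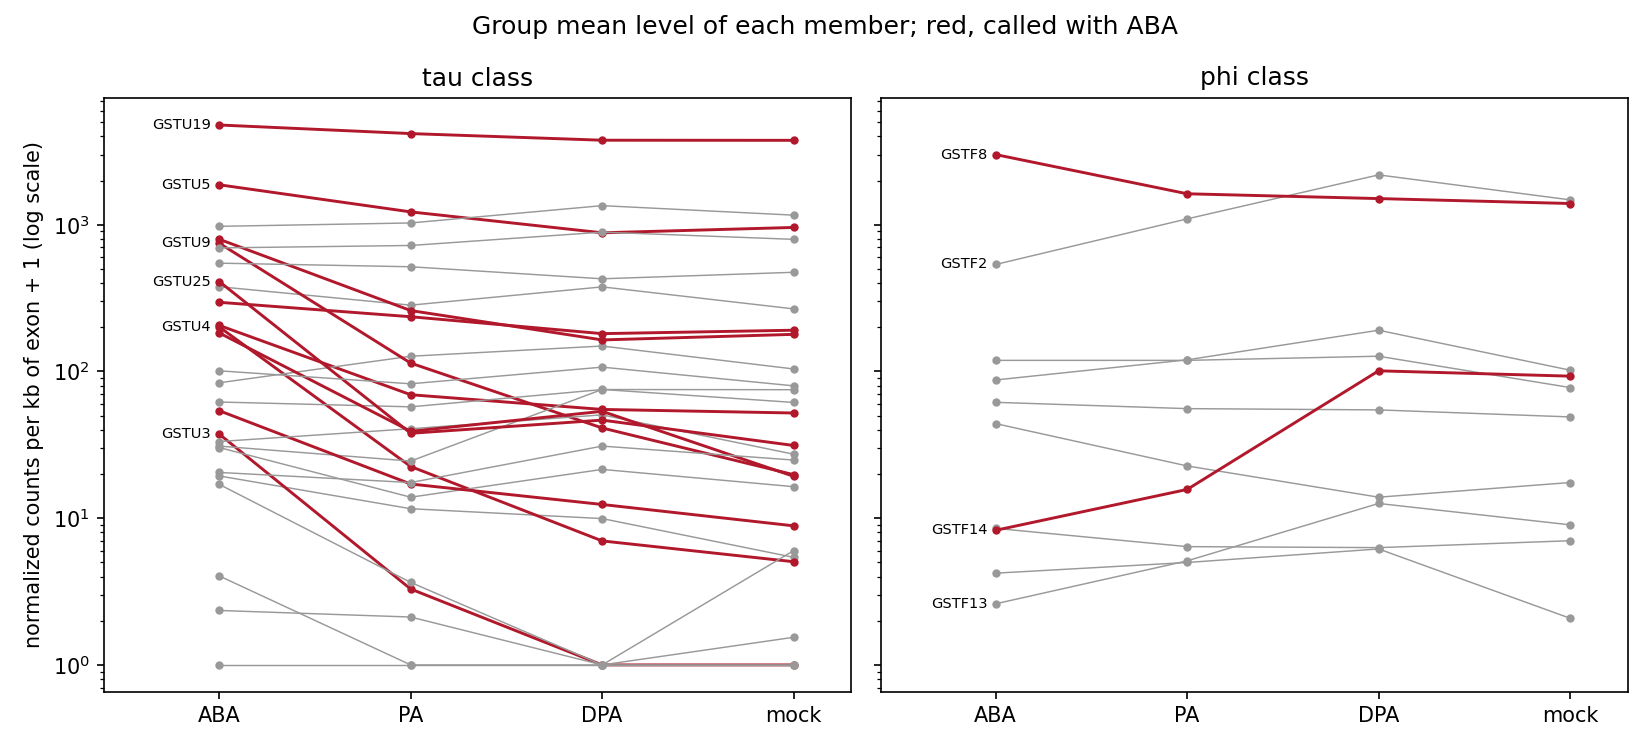
Group mean level of each tau gene (left panel) and phi gene (right panel) in normalized counts per kilobase of exon plus 1 on a log axis, for ABA, PA, DPA and mock, with genes called with ABA in red. GSTU19 leads the tau members in all groups, and GSTF8 leads the phi members with ABA and PA. GSTU20, GSTF9, GSTF10 and GSTF11 are not drawn.

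With PA a single member was called, GSTU9, and no phi gene. The PA libraries of GSTU9, at 113 and 119 normalized counts, lay above the mock libraries at 22.5 and 16.4 (log2 fold change 2.58, adjusted p = 3.2e-09 in the authors' deposited table, DESeq). Over all genes tested with PA, 1.33% were called, 1.18% higher and 0.146% lower. At an unadjusted deposited p under 0.05 the tau genes GSTU4, GSTU5, GSTU9, GSTU17 and GSTU24 and the phi gene GSTF14 passed, where 4.41% of all genes did. The limma fit called GSTU4 and GSTU9 higher and GSTF14 lower with PA, where it called 2.15% of genes, 1.84% higher and 0.311% lower. GSTU4 had a limma log2 difference from mock of 2.18 with a 95% interval of 1.29 to 3.07 (adjusted p = 0.0228), and GSTF14 one of -2.43 with an interval of -3.51 to -1.36 (adjusted p = 0.0335).

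The median log2 fold change with PA in the authors' deposited table was 0.28 over the tau class and 0.20 over the phi class, against -0.01 over all genes. In 12 of 23 tau genes both PA libraries lay above both mock libraries and in 1, GSTU6, both lay below, where 19.7% and 19.5% of all genes did so. The mock libraries were the pair farthest apart in the series, and the PA count depended on them. With the shallower mock library left out, limma called 4 tau genes higher (GSTU4, GSTU5, GSTU9 and GSTU17) and GSTU14 lower, and with the other mock library or either PA library left out it called GSTU9 alone among tau genes. With the shallower mock library left out GSTF14 was still called lower with PA, and with the other mock library or either PA library left out it was not called.

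With DPA no member was called, by the deposited adjusted p or by limma. At this threshold the authors' deposited table called 0.0125% of all genes with DPA, 3 of 23970, and limma called 0 of 19617. At an unadjusted deposited p under 0.05 GSTU7 and GSTU9 passed in the tau class and none in the phi class, where 0.918% of all genes did. With limma 4 tau genes (GSTU7, GSTU9, GSTU23 and GSTU24) and GSTF2 passed unadjusted, where 5.51% of all genes did. GSTU9 had 51.9 and 31.0 normalized counts with DPA against 22.5 and 16.4 in mock, a limma log2 difference of 1.03 with a 95% interval of 0.48 to 1.57 (adjusted p = 0.874). GSTU7 had 359 and 309 with DPA against 254 and 218 in mock. The median log2 fold change with DPA in the authors' deposited table was 0.37 over the tau class and 0.35 over the phi class, against 0.0 over all genes. In 9 of 23 tau genes both DPA libraries lay above both mock libraries and in none below, where 16.1% and 17.1% of all genes did so.

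PA and ABA were compared directly at the same dose and time by limma, with the spread shared over all 8 libraries. PA left 11 tau genes lower than ABA and none higher, and of the phi genes GSTF8 lower and GSTF2 higher. Without GSTU3, which passed the limma filter only through its ABA libraries, 10 tau genes were lower. Over all genes 19.9% were called in this comparison, 12.6% lower and 7.34% higher with PA. Among the lower ones, GSTU25 differed by a log2 value of -3.44 (95% interval -4.36 to -2.51, adjusted p = 0.000375), GSTU4 by -3.18 (-4.08 to -2.29, adjusted p = 0.000482) and GSTU9 by -2.72 (-3.27 to -2.17, adjusted p = 6.96e-05). GSTU24 differed by -2.27, GSTU22 by -1.69, GSTU17 by -1.61, GSTU1 by -1.58, GSTU6 by -1.14, GSTU5 by -0.61 and GSTU7 by -0.41 on the log2 scale. GSTU3, whose fitted difference depends on the pseudocount, had 3 and 2 reads with PA against 46 and 31 with ABA. GSTF8 was lower with PA by -0.89 (-1.06 to -0.71) and GSTF2 higher by 1.03 (0.45 to 1.62).

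For GSTU19 and GSTU16, both called with ABA against mock, no difference of PA from ABA was called. The GSTU19 difference was -0.19 with an interval of -0.38 to -0.01 (limma adjusted p = 0.133), and the GSTU16 difference was -0.33 with an interval of -0.58 to -0.08 (limma adjusted p = 0.0694). These intervals allow a small deficit with PA and do not show that the compounds act alike. GSTU1, GSTU4, GSTU9, GSTU17, GSTU24, GSTU25 and GSTF8 stayed called without any single library of the pair, while GSTU5, GSTU6, GSTU7, GSTU22 and GSTF2 were each lost without at least 1 ABA or PA library. With the deeper ABA library left out 7 members were called in all, against 13 with all libraries. A normal test of the deposited differences called 7 as well, GSTU1, GSTU4, GSTU9, GSTU17, GSTU24, GSTU25 and GSTF8.

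Between DPA and ABA 18 members were called. Relative to ABA, DPA left 11 tau genes lower and GSTU8, GSTU13 and GSTU27 higher, and of the phi genes GSTF8 and GSTF12 lower and GSTF2 and GSTF14 higher. Without GSTU3, which was at 0 with DPA and whose call ended without either ABA library, 10 tau genes were lower. Over all genes 34.1% were called in this comparison, 18.6% lower and 15.5% higher with DPA. GSTU4 was lower by a log2 value of -4.98 (95% interval -5.87 to -4.09, limma adjusted p = 1.41e-05), GSTU9 by -4.23 (-4.77 to -3.68) and GSTU25 by -3.26 (-4.19 to -2.34). GSTF14 was higher by 3.5 (2.43 to 4.58, limma adjusted p = 0.000419) and GSTF2 by 2.04 (1.45 to 2.62, limma adjusted p = 0.000285). GSTU13 had 1779 and 1687 normalized counts with DPA against 1257 and 1248 with ABA (0.47, interval 0.24 to 0.70), and GSTU27 had 937 and 922 against 777 and 676 (0.36, interval 0.14 to 0.58). In GSTU8 the values were 222 and 180 with DPA against 94.8 and 130 with ABA. GSTU8, GSTU27, GSTU19 and GSTF12 were each lost without at least 1 of the ABA or DPA libraries. A normal test of the deposited differences called 8 members, GSTU1, GSTU4, GSTU5, GSTU9, GSTU17, GSTU25, GSTF8 and GSTF2, and gave GSTF14 an adjusted p of 0.198.

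Between the catabolites themselves, 3 members were called. DPA left GSTU9 lower than PA by a log2 value of -1.51 (95% interval -2.06 to -0.96, limma adjusted p = 0.0106) and GSTU4 lower by -1.79 (-2.68 to -0.90, limma adjusted p = 0.0412). GSTF14 was higher with DPA by 2.56 (1.49 to 3.64, limma adjusted p = 0.0211), at 169 and 69.2 normalized counts against 16.3 and 18.7 with PA. Over all genes 3.83% were called, 1.39% higher and 2.44% lower with DPA. With either PA library left out none of these members was called, GSTF14 was also lost with the deeper DPA library left out, and GSTU4 with the shallower one left out. For GSTU25, GSTU24 and GSTF8, which rose with ABA, the difference of DPA from PA was 0.17 (-0.75 to 1.09), 0.38 (-0.46 to 1.23) and -0.11 (-0.28 to 0.07) on the log2 scale. PA and DPA differ by the ketone of PA that is a hydroxyl group in DPA.

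**Figure D4:**
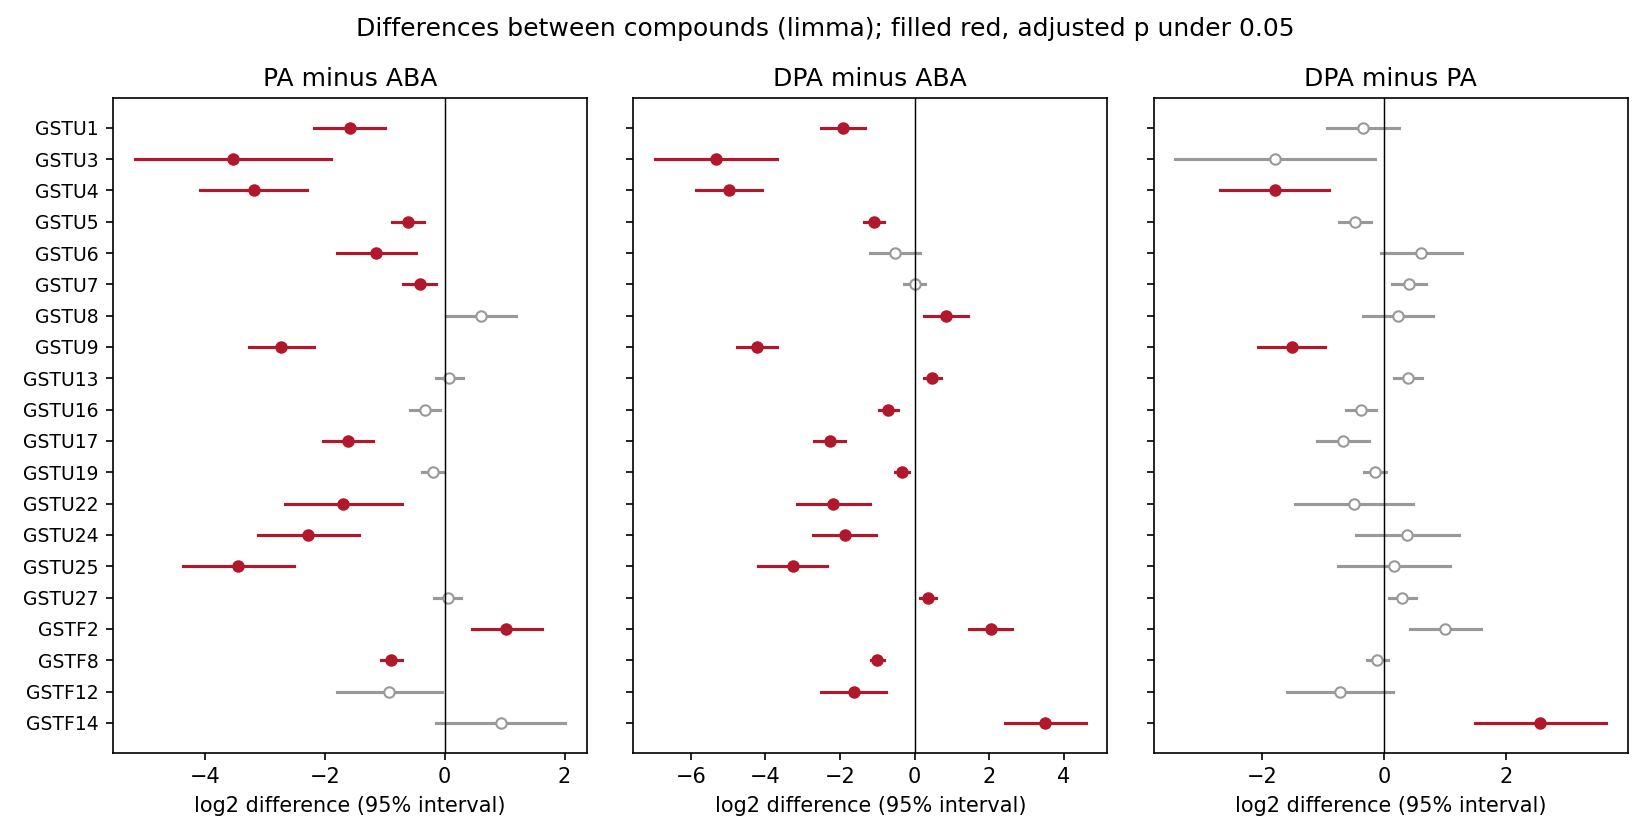
Log2 difference of PA from ABA, DPA from ABA and DPA from PA with 95% intervals (limma, pseudocount 1) for the members called in at least 1 of these comparisons, with filled red points for an adjusted p under 0.05. Most tau genes lie left of 0 in both comparisons with ABA, and GSTU4, GSTU9 and GSTF14 differ between DPA and PA.

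The replicates of some phi genes lay far apart. GSTF7 (AT1G02920), a defence-induced gene that shares 94.7% of its coding bases with GSTF6, had 182 and 28.2 normalized counts with ABA, 218 and 70.1 with PA, 327 and 133 with DPA, and 142 and 102 in mock. The deeper library was higher in every group, by more than 2-fold except in mock. GSTF6 had 155 and 125 with ABA, 171 and 109 with PA, 193 and 106 with DPA, and 68.4 and 113 in mock. GSTF14 and GSTU24 were more than 2-fold apart within DPA, and GSTF14 and GSTU14 (95 and 24) within mock. Among members with a mean of at least 50, libraries were at least 2-fold apart in 1 of 22 with ABA, 1 of 18 with PA, 3 of 20 with DPA and 2 of 18 in mock. Over all such genes the share was 0.299% with ABA, 0.178% with PA, 0.666% with DPA and 1.43% in mock. Stretches of 50 bases, the read length, that occur elsewhere in the genome made up 9.19% of GSTF7, 9.41% of GSTF6, 2.46% of GSTF2 and 3.51% of GSTF3, so counts of these copies are less certain. The same count gave 2.27% for GSTU18 and 1.98% for GSTU17. For this pair it reflects the 71 exon bases annotated in both genes, not copies elsewhere in the genome.

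**Figure D5:**
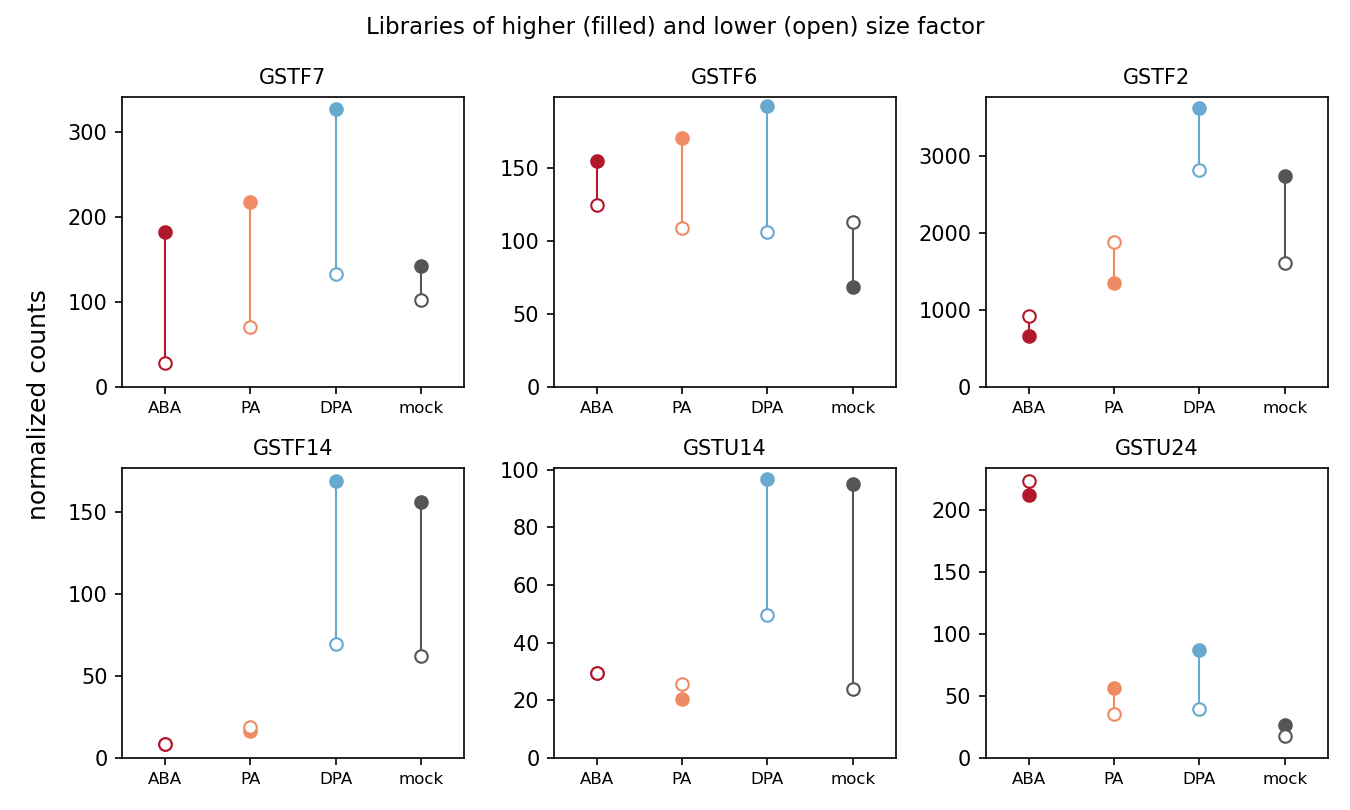
Normalized counts of the deeper (filled) and the shallower (open) library in each group for 6 unevenly measured members. GSTF7 is higher in the filled library of every group, and GSTF14 is uneven with DPA and in mock only.

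Genes that make glutathione, use it in other ways or move its conjugates gave a mixed picture with ABA. For comparison, the authors' deposited table called 10.3% of all tested genes higher with ABA and 5.12% lower. Of 7 ABCC transporters, pumps of the vacuolar membrane and other membranes that include carriers of glutathione conjugates, 5 rose and none fell, ABCC3 by a log2 fold change of 1.30, ABCC14 by 1.00, ABCC4 by 0.96 and ABCC5 by 0.60 in the authors' deposited table. The median log2 fold change of the ABCC list was 0.60, against -0.01 over all genes. Of 12 genes of other glutathione transferase classes 3 rose and none fell in the authors' deposited table: GSTZ1, an enzyme of tyrosine breakdown (1.33), DHAR1, which regenerates ascorbate (1.00), and TCHQD (0.86). The median of these classes was 0.29. None of GSTU20, GSTF9, GSTF10 and GSTF11, the tau and phi genes outside the member list, was called with ABA in the authors' deposited table (DESeq), where 3 of 4 had an unadjusted p under 0.05. The limma fit called GSTU20 lower (-0.78, adjusted p = 0.00771), GSTF11 lower (-0.87, adjusted p = 0.0195) and GSTF10 higher (0.32, adjusted p = 0.0282). GSTU20 had 1769 and 2251 normalized counts with ABA against 2844 and 4145 in mock. Among the 4 genes of glutathione synthesis and reduction, glutathione reductase GR1 rose by 1.29 and glutathione synthetase GSH2 fell by 0.41 in log2 units, by the authors' deposited table, with a list median of -0.07. Of 9 genes of conjugate and glutathione breakdown GGT1 was lower (-0.42, adjusted p = 0.0499, DESeq) in the authors' deposited table and none was higher, with a list median of 0.13.

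Of 7 genes of the TGA and SCL14 xenobiotic response 3 rose with ABA and none fell, against 10.3% and 5.12% of all tested genes. In the authors' deposited table ANAC032, a NAC factor downstream of TGA and SCL14, rose by 3.74 on the log2 scale. CYP81D11, a xenobiotic-induced P450, rose by 2.41 and SCL14 by 0.46 in the same table. TGA2, TGA5, TGA6 and OPR1 were not called, OPR1 at a log2 fold change of -0.06, and the list median was 0.19. ANAC032 was the only gene of all these lists called with PA (1.24, adjusted p = 0.000123 in the authors' deposited table, DESeq). In the anthocyanin pathway that GSTF12 serves, 4 of 11 genes rose with ABA, the MYB factor PAP1 by 3.5, F3H by 1.51, CHI by 1.17 and CHS by 0.94 in log2 units, by the authors' deposited table, and the later enzymes DFR and LDOX were not called. The median of this list was 0.94. With DPA no gene of any of these lists was called in the authors' deposited table.

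Markers of root and green tissue were compared with mock as well. With ABA 10.3% of all tested genes were called higher and 5.12% lower. Of 11 root-enriched markers 3 were called lower with ABA in the authors' deposited table and none higher: the beta-glucosidase PYK10 (-0.45), the phosphate exporter PHO1 (-0.80) and the iron transporter IRT1, which had no read with ABA, against 124 and 45.8 normalized counts in mock. The summed root markers were 22495 and 24841 with ABA, 41337 and 28778 with PA, 36786 and 30343 with DPA, and 33452 and 31145 in mock. Of 7 green-tissue markers only RBCS2B was called, and it was lower (-0.52). The green sums were 253209 and 298709 with ABA against 301891 and 346452 in mock. Of these sums RBCS1A, which was not called, gave 122583 and 140111 with ABA and 137561 and 157288 in mock. The median log2 fold change with ABA was -0.45 over the root list, with IRT1 at its bound, and -0.24 over the green list. PYK10 made up most of the root sum, which without it was 1621 and 1712 with ABA against 2271 and 2114 in mock. Of the root markers that were not called, CASP1 (0.42), RHD6 (0.34) and WOX5 (0.54) had positive log2 fold changes in the authors' deposited table. Both ABA sums lay below both mock sums in each list, also in the root list without PYK10, and the part of tissue make-up in the GSTF2 and GSTF14 values was not tested.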

How the data were processed

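RNA of 8 libraries, 2 biological replicates in each of 4 groups, was sequenced as single reads. Tools named in the submitters' processing notes are TopHat 1.4.1, DESeq 1.8.3 and HTSeq, and the genome build is TAIR10. The authors deposited a table for each compound against mock, whose group means are, per the file headers, a signal of size-factor normalized counts. The deposited fold change is a ratio of these means, and log2 values were computed from it. The deposited p-value and adjusted p are DESeq's, per the submitters' processing notes. Rows for reads outside genes (48.2% to 48.5% of the total) and for ambiguous reads (0.278% to 0.315%) were not tested.

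A group mean adds whole reads, each divided by the size factor of its library. From this spacing the reads of both libraries were recovered for 100% of values above 0, and in simulated means 91420 of 91420 were recovered. Which recovered library is which replicate is not known. Differences between compounds, and an alternative test against mock, used limma 3.58.1 (R 4.3.3, trend, two-sided) on log2 of the normalized count plus 1 in the 19617 genes whose mean reached 10, with 4 residual and 5.37 prior degrees of freedom and Benjamini-Hochberg adjustment over all genes of a contrast. In the 7 members under that mean (GSTU11, GSTU12, GSTU15, GSTU21, GSTF3, GSTF5 and GSTF13) it gave no value. No count model was run on the recovered reads. In data simulated with the same dispersion for every gene, 60.0% to 74.7% of 2-fold and 98.0% to 99.0% of 4-fold changes were recovered. That setting does not cover members with uneven libraries, such as GSTF7 and GSTF14. The p-values rest on biological duplicates. Counting intervals are exact, at 95% confidence, and cover counting error only.

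The members, lists and tests were chosen with earlier results of these data known. All members could be named, with library values for those called with at least a 2-fold change against mock. The other members were given by range and count and named where they help a reader, some with library values chosen after these were seen, and from each related list at most 4 called genes of largest change. Levels per kilobase use exon lengths of RefSeq's TAIR10.1, which also gave positions and sequences. Motif counts covered 27443 protein-coding genes. Alternatives were a threshold of 0.01, a 2-fold minimum, limma with a pseudocount of 5, without the filter, with upper-quartile scaling, with only the compared groups and without each library, a normal test of differences of the deposited log2 fold changes, and joint adjustment over the 3 contrasts of compounds.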

Additional observations from a re-analysis of the deposited data

How the results depend on the processing

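Each comparison rested on 2 libraries a group, so a call could hang on a single library. The tau count with ABA was 11 in the authors' deposited table and 8 to 13 under every alternative run, and 10 to 13 without each library. The phi count with ABA was 2, and became 1 at a threshold of 0.01, 4 with limma, with a pseudocount of 5 and with upper-quartile scaling, 5 without the filter on low values, and 3 to 4 without each library. With PA the tau count was 1, against 2 with limma, with a pseudocount of 5, without the filter and with upper-quartile scaling, and 1 to 5 without each library. The phi count with PA was 0, against 1 with limma, with a pseudocount of 5, with upper-quartile scaling and with the compared groups only, and 0 to 1 without each library. The counts with DPA were 0 under all alternatives run. Between PA and ABA 13 members were called, against 7 by the normal test of deposited differences and 7 to 10 without each library. Between DPA and ABA 18 were called, against 8 by the normal test and 14 to 18 without each library. Between DPA and PA 3 were called, against 7 with the compared groups only, 0 by the normal test, 9 with joint adjustment and 0 to 2 without each library. The cause of these differences was not tested. Of the values of single members recomputed, 400 kept their direction and call, 55 kept their direction and lost the call, and none reversed. Settings that gave a member no value are not in these counts. GSTU3 had a value in 6 settings of each comparison, and none without either ABA library or with upper-quartile scaling. Its kept calls therefore do not cover those settings. Fits without a library assume that a lone sample varies like the other groups. At this depth members with fewer than 3 reads in a group, such as GSTU12 and GSTU21, cannot be ranked. No paired analysis was possible because the recovered libraries carry no replicate number.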
